A study of Mus musculus with 6 samples.

Results

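CC chemokines are small secreted proteins that carry an adjacent pair of cysteines near the start of the mature chain and attract leukocytes through G protein-coupled receptors. Inflamed and tumor-associated fibroblasts are known producers of the monocyte attractants Ccl2 and Ccl7, of Ccl8 and of the eosinophil attractant Ccl11. In contrast, Ccl3 and Ccl4 are known as products of activated myeloid cells and lymphocytes. Ccl19 is made by lymphoid stroma and draws cells that carry Ccr7. These 7 ligands were followed through the stroma of colon tumors, with the questions of which cells held their transcripts, whether fibroblast and neutrophil sources differed, and how the levels varied between plates and genotypes. They are 7 of 19069 genes listed in the tables, chosen by name, and all 7 were listed, with Ccl19 not listed on plate 6 and therefore at 0 there.

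The tumors arose after the carcinogen azoxymethane and 3 cycles of the colitis-inducing dextran sulfate sodium (AOM/DSS) in mice with a conditional Zeb1 allele. FibCtrl mice lacked the Col6a1Cre transgene and kept Zeb1, the gene of a transcription factor of mesenchymal cells; FibΔZeb1 mice carried the transgene, which deletes Zeb1 in cells in which the Col6a1 promoter is active. Littermates of both sexes were used in the study, their ages at sampling are not given per sample, and no untreated tissue was among the plates. The tumor model is taken from the study's methods, while the treatment label of the samples reads None. Viable cells negative for EPCAM, CD45 and CD31 were sorted singly and measured by SORT-seq, which tags each mRNA molecule at its 3′ end with a molecular barcode. The cells of each mouse filled the 384 wells of 1 plate, plates 1, 3 and 4 for FibCtrl and plates 2, 5 and 6 for FibΔZeb1, so that n is 3 plates per genotype and plate and mouse cannot be told apart.

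Transcripts summed to between 1575726 and 3699058 per plate. Of 2304 wells, 1233 had 100 to 6000 genes and under 10% mitochondrial transcripts and were kept, between 109 and 298 per plate. The deposited names give plate 6 another run code than plates 1 to 5, and the labels name no run. The same 384 well barcodes are used on every plate by design. Each kept well was assigned to the marker list with the highest mean level if at least 3 of its markers were found. No list holds a CC chemokine or receptor. This gave 584 fibroblast-like wells, 451 neutrophil-like, 78 epithelial-like, 56 pericyte-like and 20 smooth muscle-like wells, 9 with T or NK cell markers, 8 glial-like wells, 1 mast cell-like well and 26 wells without a type. No well was assigned to the macrophage, B or plasma cell, dendritic cell or endothelial lists.

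The samples are labelled as cancer-associated fibroblasts, and the neutrophil-like and epithelial-like wells go against that label. The markers of a gate are high in its wells by the rule that made it, so their levels are no separate evidence of the type. Col6a1 and Ptprc were in no marker list. In fibroblast wells 10 of 10 fibroblast markers were found in at least 10% of the wells, and Col6a1 was found in 94.2% of them. In neutrophil wells all 8 neutrophil markers were found, among them S100a8, S100a9 and Csf3r, at a summed level of 92740 CPM (transcripts scaled to the total of the summed wells), against 170.0 CPM in fibroblast wells. Ptprc, which encodes CD45 and should have been removed by the sort, was found in 74.3% of neutrophil wells and at 1145 to 1481 CPM on the 6 plates. Fibroblast wells were deeper, with a median of 11532 transcripts against 1442 in neutrophil wells. The split between both gates also differed strongly between plates: fibroblast wells numbered 182, 181, 20, 59, 126 and 16 on plates 1 to 6, and neutrophil wells 22, 82, 190, 19, 66 and 72. Macrophages are a further known source of CC chemokines. Their markers summed to 9.05 CPM in fibroblast wells and 264.0 CPM in neutrophil wells. In neutrophil wells C1qa, Mrc1 and Ms4a7 were at 0, and Csf1r, Cd68, Adgre1, C1qb and C1qc were found in 80, 30, 12, 3 and 2 wells.

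The 6 genes apart from Ccl19 lie close together on chromosome 11 in GRCm38. Ccl2 (chr11:82035571-82037453), Ccl7 (chr11:82045712-82047525), Ccl11 (chr11:82057823-82062955) and Ccl8 (chr11:82115185-82116799) lie in this order on the plus strand. Ccl3 (chr11:83647844-83649355, minus strand) and Ccl4 (chr11:83662584-83664683, plus strand) are neighbors further along, and Ccl19 (chr4:42754525-42756577, minus strand) is on chromosome 4. The coding sequence of each has exactly 1 pair of adjacent cysteine codons, between codons 32 and 35. The pair is printed here for 6 of the ligands within 30 bases of coding sequence, 5′ to 3′ in the sense of the mRNA, because it defines the CC family and because the windows show how far the members differ around it. Capitals mark both cysteine codons.

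Ccl2: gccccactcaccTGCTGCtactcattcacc
Ccl7: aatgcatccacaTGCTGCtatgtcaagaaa
Ccl11: atcccaacttccTGCTGCtttatcatgacc
Ccl8: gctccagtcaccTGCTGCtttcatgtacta
Ccl4: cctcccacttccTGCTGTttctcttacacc
Ccl19: gatgcggaagacTGCTGCctgtctgtgacc

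Ccl3 and Ccl4 were 69.5% identical over their aligned coding sequences, the highest value of the 21 pairs, and Ccl7 and Ccl11 were 67.7% identical. No stretch of 31 bases of Ccl2, Ccl3, Ccl4, Ccl7 or Ccl8 recurred in the transcripts of another gene, and 0.0951% of those of Ccl11 did. For Ccl19 this share was 58.8%, shared with Gm2564, Ccl19-ps3 and Gm12407, so that counts assigned to Ccl19 are uncertain.

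Transcripts of 5 ligands, summed over the plates, were counted mostly in fibroblast wells. These wells held 96.8% of the 5332 Ccl2 transcripts of all kept wells, 98.7% of the 2987 of Ccl7, 98.9% of the 267.1 of Ccl8, 91.0% of the 2135 of Ccl11 and 90.4% of the 52.0 of Ccl19, while they held 72.7% of all transcripts. Neutrophil wells, with 7.87% of all transcripts, held 83.5% of the 382.3 Ccl3 transcripts and 74.7% of the 178.1 of Ccl4. Wells without a type added 12.1% of Ccl3 and 20.3% of Ccl4. Pericyte wells held 6.90% of Ccl11 and 9.62% of Ccl19. Plate 4 stood apart from these sums. Fibroblast wells held 81.4% of Ccl2 and 75.0% of Ccl11 there, pericyte wells 18.0% and 24.2%, and all 3 Ccl19 transcripts of that plate were in pericyte wells. Neutrophil wells of plate 4 held 21.0% of its Ccl3 and none of its Ccl4, and wells without a type 73.7% and 96.9%.

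**Figure D1:**
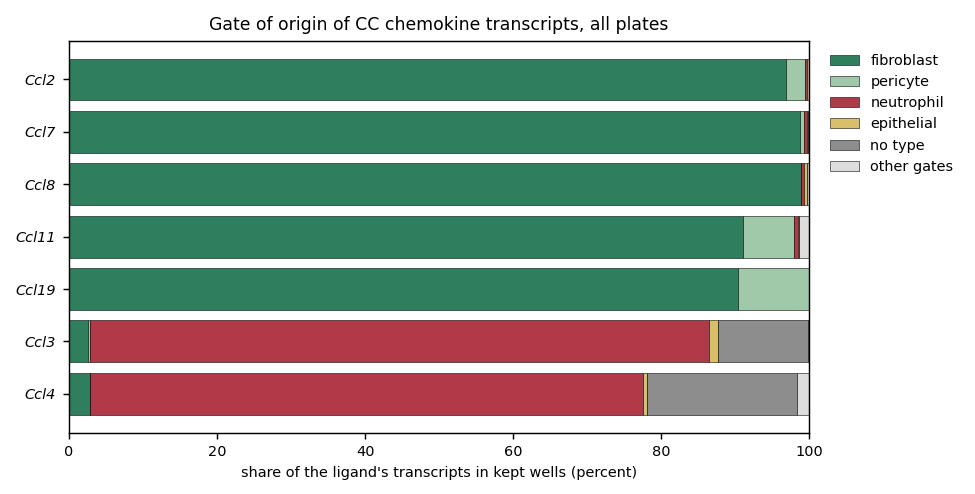
Share of each ligand's transcripts in kept wells, in percent, by the marker gate of the well, summed over the 6 plates. Ccl2, Ccl7, Ccl8, Ccl11 and Ccl19 came to at least 90.4% from fibroblast wells, and Ccl3 and Ccl4 to 83.5% and 74.7% from neutrophil wells.

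Ccl2, the ligand of Ccr2, was measured in fibroblast wells at 1238, 518.2, 208.8, 186.5, 815.5 and 127.7 CPM on plates 1 to 6. Plates 1 and 5 were high and plates 4 and 6 low, across both genotypes. In neutrophil wells of the same plates it was at 23.88, 72.12, 6.51, 0, 106.4 and 0 CPM, below the fibroblast wells on 6 of 6 plates. The difference of neutrophil to fibroblast wells was -3.57 on the log2 scale (SE 0.55, adjusted p = 1.728e-06, edgeR quasi-likelihood test on sums per plate and gate with plate as a block). At least 1 Ccl2 transcript was found in 46.9% of fibroblast wells (exact 95% confidence interval 42.8 to 51.1) and in 4.21% of neutrophil wells. With every well thinned to 1000 barcodes these shares were 25.2% of 555 wells and 2.53% of 316 wells. The 10 highest fibroblast wells held 26.5% of the sum, with 231.4 transcripts in the highest.

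Ccl7, which shares receptors with Ccl2, was at 771.5, 214.8, 25.18, 147.9, 534.9 and 30.88 CPM in fibroblast wells of plates 1 to 6. As for Ccl2, plates 1 and 5 were highest. Neutrophil wells were at 95.51, 27.05, 3.26, 0, 59.12 and 0 CPM, again lower on 6 of 6 plates, with a difference of -2.97 (SE 0.44, adjusted p = 9.458e-07, edgeR). It was found in 38.9% of fibroblast wells (34.9 to 43.0) and 2.22% of neutrophil wells, or 17.7% and 1.27% after thinning.

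Ccl11, the eotaxin that binds Ccr3, varied least between plates among the ligands of fibroblast wells. Its levels in fibroblast wells were 324.2, 275.5, 104.4, 247.4, 230.2 and 278.7 CPM, with plate 3 low and the others within a narrow range. Neutrophil wells reached at most 71.63 CPM, and the difference was -3.18 (SE 0.46, adjusted p = 7.321e-07, edgeR), with fibroblast wells higher on 6 of 6 plates. It was found in 43.3% of fibroblast wells (39.3 to 47.5) and in 2.44% of neutrophil wells, and in 16.9% and 0.949% after thinning.

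Ccl8, a ligand of Ccr8 in the mouse, was lower in number. Fibroblast wells held 30.14, 43.24, 61.16, 76.64, 12.24 and 11.58 CPM, and 18.3% of them (15.3 to 21.7) had a transcript, or 3.42% after thinning. All neutrophil wells together held 1 transcript. The ratio of fibroblast to neutrophil levels was 28.6 with a counting interval of 5.08 to 1130, and the test gave an adjusted p of 0.0003915 (edgeR). Ccl19 was counted 47 times in fibroblast wells and in 0 of 451 neutrophil wells, which allows a share of wells with a transcript of up to 0.665% (3 counts of the total). At the depth of neutrophil wells this does not limit how many of the cells express it: after thinning, Ccl19 was found in 0.36% of fibroblast wells, against 4.79% before. As a level it was at least 1.70-fold higher in fibroblast wells, against a floor of 3 counts over all neutrophil wells, and did not pass the count filter of the test.

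Ccl3, a ligand of Ccr1, had the opposite distribution. Neutrophil wells held 358.4, 559.1, 420.4, 381.9, 567.8 and 280.2 CPM on plates 1 to 6, and fibroblast wells 0.450, 2.36, 0, 2.83, 0.941 and 0 CPM. The groups of values did not overlap, and neutrophil wells were higher on 6 of 6 plates. The difference of 8.44 on the log2 scale (SE 0.54, adjusted p = 2.685e-14, edgeR) is a 348-fold higher level in the fit. The ratio of the levels summed over plates was 295, with a counting interval of 158 to 621, from 10 fibroblast transcripts. A Ccl3 transcript was found in 22.2% of neutrophil wells, although they were the shallower wells, and in 1.20% of fibroblast wells. After thinning the shares were 20.6% of 316 wells and 0 of 555 wells, for which the upper bound of the exact interval was 0.662%.

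Ccl4, a macrophage inflammatory protein, was found in neutrophil wells of 4 plates. Levels were 0, 252.4, 201.9, 0, 414.1 and 42.26 CPM on plates 1 to 6, where the 0 values came from the plates with 22 and 19 neutrophil wells and 3 counts there would have been 71.6 and 95.4 CPM. Fibroblast wells held at most 3.6 CPM and 5 transcripts in all. Neutrophil wells were higher by 7.61 (SE 0.69, adjusted p = 9.797e-11, edgeR), but only on 4 of 6 plates. Shares of wells with a transcript were 13.1% and 0.856%.

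In this comparison, 6833 genes were tested, of which 22.8% were called higher and 41.1% lower in neutrophil wells. Of the 6 ligands tested, 2 were called higher and 4 lower. Ccl3 and Ccl4, with 10 and 5 fibroblast transcripts, passed the count filter through neutrophil wells. Ccl8, with 1 neutrophil transcript, passed it through fibroblast wells. Such ligands were likely to be called, so their calls are not comparable with the shares of all genes. The same holds for Ccl8 in the pericyte and epithelial comparisons below, which are of the same fit. The median difference was -3.08 for the 6 ligands and -0.72 for all genes tested. The fibroblast markers were themselves counted in neutrophil wells, at a summed 2469 CPM against 46590 CPM in fibroblast wells. Per 1000 transcripts of these markers, neutrophil wells held 10.6 transcripts of Ccl2 (counting interval 6.47 to 16.3) and fibroblast wells 15.7. For Ccl7 the values were 6.88 (3.66 to 11.8) and 8.95, and for Ccl11 they were 6.35 (3.28 to 11.1) and 5.89. Per 1000 neutrophil marker transcripts, fibroblast wells held 8.32 of Ccl3 (3.99 to 15.3, from 10 transcripts) and neutrophil wells 4.5. The intervals are wide, and whether these few transcripts came from the cells of the well was not tested.

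**Figure D2:**
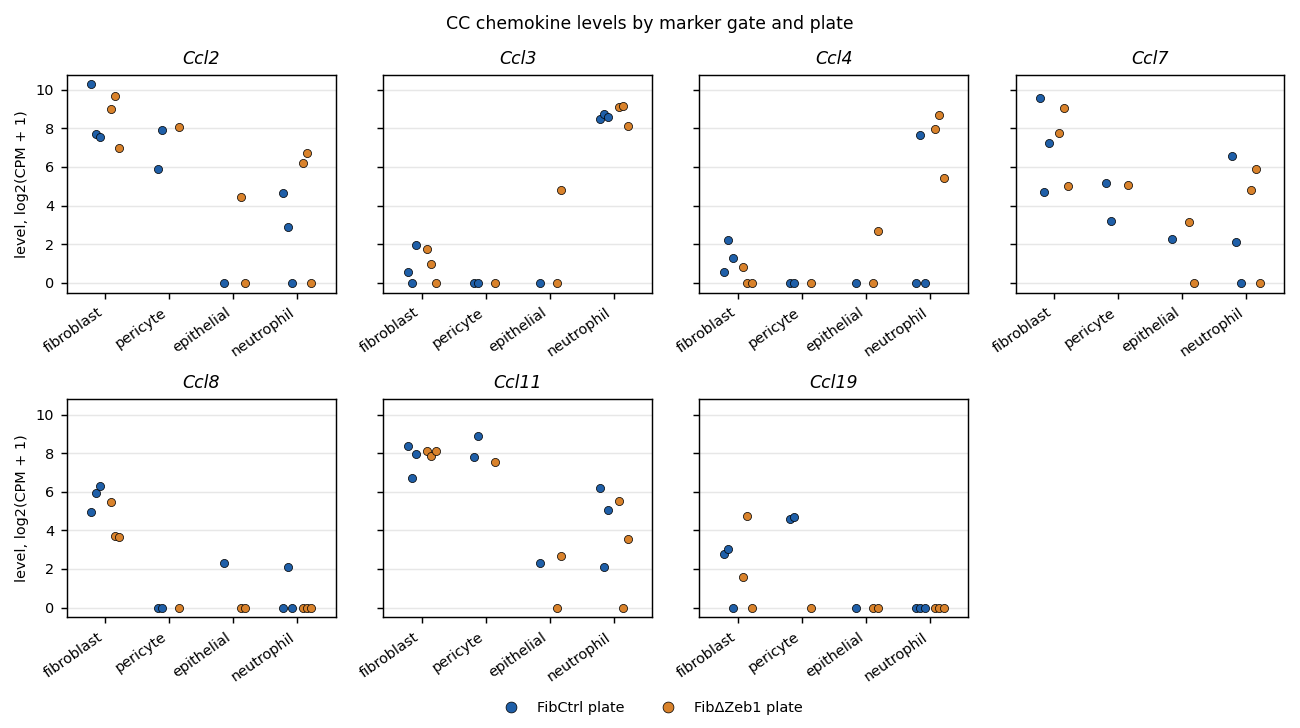
Level of each ligand as log2(CPM + 1) in 4 marker gates, 1 point for each plate with at least 10 wells of the gate, colored by genotype. Ccl3 lies between 280.2 and 567.8 CPM in all 6 neutrophil sums, and Ccl2 between 127.7 and 1238 CPM in all 6 fibroblast sums.

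Pericyte and epithelial wells were compared with fibroblast wells in the same fit, each on 3 plates. Pericytes surround small vessels and share collagen genes with fibroblasts. Ccl11 did not differ detectably between the gates, at 218.9, 182.8 and 469.0 CPM in pericyte wells of plates 1, 2 and 4 (difference -0.36, SE 0.44, adjusted p = 0.784, edgeR). Ccl2 was at 57.57, 263.7 and 242.5 CPM in these wells, with a difference of -1.49 (SE 0.61, adjusted p = 0.1315) that did not pass. It passed under 4 of 15 alternatives, with adjusted p of 0.004177 to 0.03495. Ccl7 was lower in pericyte wells at 34.54, 32.20 and 8.34 CPM (difference -3.68, SE 0.50, adjusted p = 1.56e-06). No Ccl8 transcript was counted in the 56 pericyte wells, and the level in fibroblast wells of the 3 plates was at least 8.16-fold higher (adjusted p = 0.0001413). Pericyte wells also held fibroblast markers at 15960 CPM, and the part of these in the Ccl2 and Ccl11 values was not tested. Of all genes, 5.11% were called higher and 6.75% lower in pericyte wells, and of the 6 ligands tested 0 and 2.

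Epithelial wells held few transcripts of any ligand. Ccl2 was counted 9 times in 78 wells, Ccl7 4 times, Ccl11 3 times, Ccl8 1 time and Ccl19 never. On the 3 plates compared, fibroblast wells exceeded epithelial wells 52.6-fold for Ccl2 (counting interval 26.6 to 122) and 69.5-fold for Ccl7 (27.0 to 256). The ratio for Ccl11 was 100 (27.6 to 830). These and Ccl8 were called lower in epithelial wells, that is 4 of 6 ligands, against 15.4% of all genes, and 0 ligands were called higher against 6.79% of all genes. The Ccl8 call rests on 1 epithelial transcript and was lost without plate 4 (adjusted p = 0.05823) and without wells holding more than 1 transcript of Ptprc or Epcam (adjusted p = 0.1783, edgeR). Ccl3 was counted 5 times in epithelial wells, all on plate 6, and Ccl4 1 time.

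The order of levels over the gates was thus fibroblast before pericyte for Ccl7. For Ccl2 the step was not past the threshold. Fibroblast wells were higher in Ccl2 on plates 1 and 2, and pericyte wells on plate 4, at 242.5 against 186.5 CPM. For Ccl11 fibroblast and pericyte wells stood side by side, followed by neutrophil and epithelial wells, which were not tested against each other. Among these 4 gates Ccl3 and Ccl4 were highest in neutrophil wells, and pericyte and fibroblast wells, with 1 and 10 transcripts of Ccl3 and 0 and 5 of Ccl4, could not be ordered. The 26 wells without a type, which were not tested, held more, at 1196 CPM of Ccl3 and 936.6 CPM of Ccl4 against 417.1 and 173.8 CPM over all neutrophil wells.

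Fibroblast wells were split further by subtype markers, which gave 182 wells like inflammatory cancer-associated fibroblasts (iCAFs, with markers such as Pi16 and Sfrp4), 129 wells like telocytes (subepithelial cells with Wnt5a, Foxl1 and Bmp7), 130 wells with Cxcl13 and Grem1 markers, and 143 wells without a subtype. The subtype gates were uneven between plates: plate 5 held 85 and plate 1 held 62 of the iCAF-like wells. Each subtype was compared with the mean of the other fibroblast groups over plates with at least 10 wells, with plate as a block, over 8702 genes.

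Ccl2 and Ccl7 were highest in iCAF-like wells. Ccl2 was there at 2650, 1293 and 1043 CPM on plates 1, 2 and 5, against 70.34, 334.6 and 87.55 CPM in telocyte-like wells of plates 1, 2 and 4. The other groups lay closer, with 735.8 and 309.1 CPM in wells with Cxcl13 and Grem1 markers of plates 1 and 2, and 211.0, 606.9 and 683.5 CPM in wells without a subtype of plates 1, 2 and 5. Its iCAF-like level was 5.01-fold that of the other groups (log2 difference 2.32, SE 0.44, adjusted p = 0.002409, edgeR). Ccl7 was at 1846, 553.4 and 684.6 CPM in iCAF-like and at 91.74, 53.33 and 47.03 CPM in telocyte-like wells. It was 8.22-fold higher in iCAF-like wells (3.04, SE 0.33, adjusted p = 1.624e-05) and lower in telocyte-like wells by 2.81 (SE 0.40, adjusted p = 0.0002739), while Ccl2 in telocyte-like wells was at -1.78 (SE 0.58, adjusted p = 0.07565) and passed under 5 of 16 alternatives. With 31.2% of the fibroblast wells, the iCAF-like gate held 66.7% of Ccl2, 75.6% of Ccl7 and 72.3% of the 47 Ccl19 transcripts of fibroblast wells. These sums were carried by plates 1 and 5, where it held 78.3% and 87.6% of Ccl2. On plate 3 it held 15.5% of Ccl2 and 14.3% of Ccl7 with 20% of the wells, and on plate 6 15.1% of Ccl2 and 75.0% of Ccl7 with 18.8% of the wells, from 4 and 3 wells. After thinning to 1000 barcodes, Ccl2 was found in 43.4% of iCAF-like wells (36.1 to 50.9) and 10.1% of telocyte-like wells (5.48 to 16.6), and Ccl7 in 35.2% and 3.88%.

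Ccl8 ran the other way. It was at 4.92, 14.15 and 6.87 CPM in iCAF-like wells and at 63.96, 60.89 and 87.37 CPM in telocyte-like wells, which held 51.5% of its fibroblast transcripts. It was lower in iCAF-like wells (-1.74, SE 0.47, adjusted p = 0.02512) and higher in telocyte-like wells (1.70, SE 0.33, adjusted p = 0.002657). In wells with Cxcl13 and Grem1 markers it was at 40.04 and 57.55 CPM on 2 plates (1.24, SE 0.34, adjusted p = 0.08533, edgeR). This difference did not pass, and it passed under 2 of 16 alternatives. The Ccl8 calls were not kept without plate 1 or, for iCAF-like wells, without plate 2 and with DESeq2: without plate 1 the values were -1.02 (adjusted p = 0.8183) for iCAF-like and 1.43 (adjusted p = 0.1502) for telocyte-like wells, and the stricter gate gave 0.55 (adjusted p = 0.4686) for telocyte-like wells. Ccl11 did not differ detectably between subtypes, with 0.19 (SE 0.37) for iCAF-like and -0.01 (SE 0.38) for telocyte-like wells. Its largest difference was 0.66 (SE 0.38, adjusted p = 0.6648, edgeR), in wells with Cxcl13 and Grem1 markers.

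In the iCAF-like comparison 5.45% of genes were called higher and 3.31% lower, and of the 4 ligands tested 2 and 1. In the telocyte-like comparison the shares were 4.47% and 3.21% of genes, with 1 ligand each. Ccl8, with 15 transcripts in all iCAF-like wells, passed the count filter through other subtypes, so its calls are not comparable with these shares. The Cxcl13 and Grem1 comparison called 1.1% higher and 0.448% lower, and none of the 4 ligands. Zeb1 itself was higher in iCAF-like wells (1.25, SE 0.28, adjusted p = 0.007472).

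**Figure D3:**
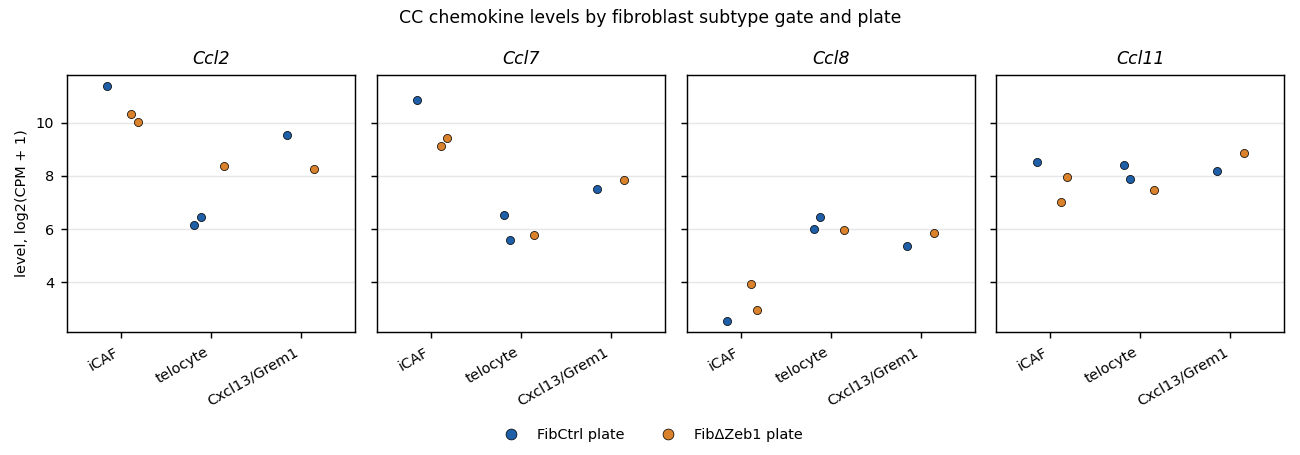
Level of 4 ligands as log2(CPM + 1) in 3 fibroblast subtype gates, 1 point for each plate with at least 10 wells of the gate, colored by genotype. The 3 iCAF-like points are the highest for Ccl2 and Ccl7 and the lowest for Ccl8.

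Within single wells, Ccl2 and Ccl7 were often found together. Of 584 fibroblast wells, 160 held both, 274 held Ccl2 and 227 held Ccl7. Ccl7 was found in 58.4% of wells with Ccl2 and in 21.6% of wells without it, and the share was higher with Ccl2 on 6 of 6 plates. Wells with Ccl2 were deeper (median 12904 against 10480 transcripts), and the part of depth in this was not tested. For Ccl11 the shares with and without Ccl2 were 50.4% and 37.1%, and for Ccl8 they were 22.3% and 14.8%. By plate, Ccl11 was found less often with Ccl2 on plate 3, in 33.3% against 45.5% of wells. It was found more often with Ccl2 on the other plates, with 60.0% against 32.8% on plate 1. In neutrophil wells, Ccl4 was found in 27.0% of wells with Ccl3 and in 9.12% of wells without it, and 27 wells held both. Wells with Ccl3 were deeper (median 1823.7 against 1339.7 transcripts), and plates 1 and 4, included in these shares, had no neutrophil well with Ccl4. The part of depth was not tested here either.

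The transgene's target was examined before the genotypes were compared. Zeb1 was at 109.3, 100.7 and 94.97 CPM in fibroblast wells of FibCtrl plates 1, 3 and 4 and at 56.22, 69.66 and 61.76 CPM in those of FibΔZeb1 plates 2, 5 and 6. The groups did not overlap, at a log2 difference of -0.68 (SE 0.21, unadjusted p = 0.01195, adjusted p = 0.9999, edgeR). The deleted part of the gene is not given in the sources used here, and 3′ tags can lie outside it, so these counts may not measure the deletion.

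None of the 7 ligands differed detectably between genotypes, with 4 of them passing the count filter in fibroblast wells and 2 in neutrophil wells, and Ccl19 in neither. None of the 8763 genes tested in fibroblast wells was called (0%), with 135 genes at an unadjusted p under 0.05 in edgeR and 1 gene, Procr, called by DESeq2. None was called of 1396 genes in neutrophil wells (0%; 55 genes unadjusted, 0 by DESeq2) or of 10424 genes in all kept wells (0%; 73 genes unadjusted, 0 by DESeq2). In fibroblast wells the differences of FibΔZeb1 to FibCtrl plates were -0.16 for Ccl2 (SE 0.84), -0.27 for Ccl7 (SE 1.10), -0.99 for Ccl8 (SE 0.52, unadjusted p = 0.09433) and 0.19 for Ccl11 (SE 0.37), each with an adjusted p of 0.9999 (edgeR). In neutrophil wells they were 0.20 for Ccl3 (SE 0.33) and 0.91 for Ccl4 (SE 0.79).

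The spread between plates of 1 genotype was larger than the difference between genotypes for Ccl2 and Ccl7. Fibroblast wells had 544.4 ± 600.7 CPM of Ccl2 (SD, n = 3) in FibCtrl and 487.1 ± 345.0 CPM in FibΔZeb1 mice, and 314.9 ± 400.2 and 260.2 ± 255.1 CPM of Ccl7. Plate 1 set the FibCtrl means: without it the differences turned to 1.43 for Ccl2 and 1.67 for Ccl7 on the log2 scale. Among plates 1 to 5, which share a run code, they were 0.28 (SE 0.82) and 0.21 (SE 1.07). Plates 1 and 5, which had the highest Ccl2 and Ccl7 in fibroblast wells, were also the 2 plates with the most iCAF-like wells, and the part of this in the plate levels was not tested.

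For the other ligands, Ccl11 had 225.3 ± 111.5 and 261.5 ± 27.12 CPM in fibroblast wells and Ccl8 had 55.98 ± 23.68 and 22.35 ± 18.09 CPM, and the groups overlapped for both. Ccl19 was at 5.85, 7.20 and 0 CPM on FibCtrl plates and at 1.97, 25.42 and 0 CPM on FibΔZeb1 plates. In neutrophil wells Ccl3 had 386.9 ± 31.3 and 469.0 ± 163.6 CPM, and Ccl4 had 67.30 ± 116.6 and 236.3 ± 186.4 CPM. The share of neutrophil wells with Ccl3 was 15.8% to 19.5% on FibCtrl and 22.2% to 30.5% on FibΔZeb1 plates. This was the only 1 of 42 values compared in which the groups did not overlap. Its exact two-sided permutation p of 0.1 is the smallest that 3 against 3 plates allow, and every p adjusted over the 42 values was 1.0.

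**Figure D4:**
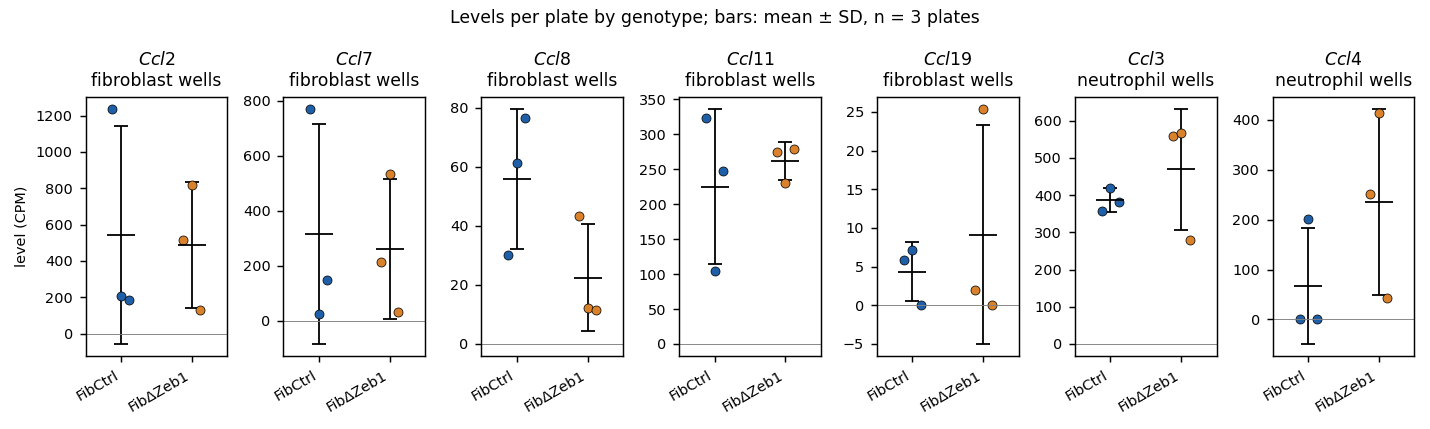
Level in CPM of each ligand in its main gate, 1 point per plate, with the mean and SD of 3 plates per genotype (each panel has its own axis). The genotypes overlap for all 7 ligands.

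The genotype effect was also compared between neutrophil and fibroblast wells with an interaction term. Among 5578 genes 1 was called (0.0179%), Cxcl3, which is no CC chemokine. The largest positive values among the ligands were 4.0 for Ccl4 (SE 1.59) and 2.11 for Ccl2 (SE 1.07), both with an adjusted p of 1.0 (edgeR). The most negative was -2.865 for Ccl8 (SE 4.32), from 1 neutrophil transcript, and it was not called. The Ccl4 value rests on 5 fibroblast transcripts and on 0 in neutrophil wells of plates 1 and 4. The shares of wells per gate did not differ detectably either, with 44.3 ± 35.7% fibroblast wells on FibCtrl and 42.4 ± 24.4% on FibΔZeb1 plates (exact permutation p = 1.0).

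The remaining family was read from fixed lists of 13 other CC ligands, 10 of them listed, and 15 CC or atypical receptors, 14 of them listed. Of the other ligands only Ccl6 passed the count filter. It was at 1432 to 2174 CPM in neutrophil wells of the 6 plates and at 0 to 10.79 CPM in fibroblast wells (log2 difference 9.89, SE 0.48, adjusted p = 1.993e-16, edgeR). The others were sparse, at 0 to 43.09 transcripts in all kept wells. Of 4 receptors tested between the gates, 2 were higher in neutrophil wells and 2 lower, where 22.8% and 41.1% of all genes were. Ccl6 and Ccr1 passed the count filter through neutrophil wells, so their calls are not comparable with these shares. Ccr1, a receptor for Ccl3 and Ccl7, was at 982.9 to 1816 CPM in neutrophil and at most 3.86 CPM in fibroblast wells (9.73, SE 0.50, adjusted p = 3.886e-16). Ccrl2, which binds chemerin, was at 729.7 to 1397 CPM and 7.53 to 53.96 CPM (5.89, SE 0.48, adjusted p = 4.375e-12). Ackr3, a scavenger of Cxcl12, was lower in neutrophil wells (-3.88, SE 0.50, adjusted p = 6.786e-08), as was Ackr1 (-2.88, SE 0.87, adjusted p = 0.005328), which binds many chemokines including Ccl2 and was counted 331.1 times in fibroblast and 2 times in neutrophil wells. Ccr2, the main receptor of Ccl2 and Ccl7, was counted 5 times in fibroblast wells and 1 time in neutrophil wells.

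In the iCAF-like gate 3 of 5 receptors tested were called higher and none lower, against 5.45% and 3.31% of all genes. Ackr2 (2.16, SE 1.22, adjusted p = 0.3561) and Ccrl2 (0.0445, SE 0.41, adjusted p = 0.9808, edgeR) were not called. Ackr4, a scavenger of Ccl19, had a log2 difference of 3.57 (SE 0.58, adjusted p = 0.0005979), Ackr1 of 2.29 (SE 0.33, adjusted p = 0.0001891) and Ackr3 of 1.10 (SE 0.22, adjusted p = 0.002851). Ackr1 was lower in telocyte-like wells (-2.62, SE 0.48, adjusted p = 0.001815). Ackr3 was also lower in pericyte than in fibroblast wells (-1.88, SE 0.47, adjusted p = 0.004431), and Ackr3 and Ackr1 were lower in epithelial wells (-5.72 and -5.20).

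**Figure D5:**
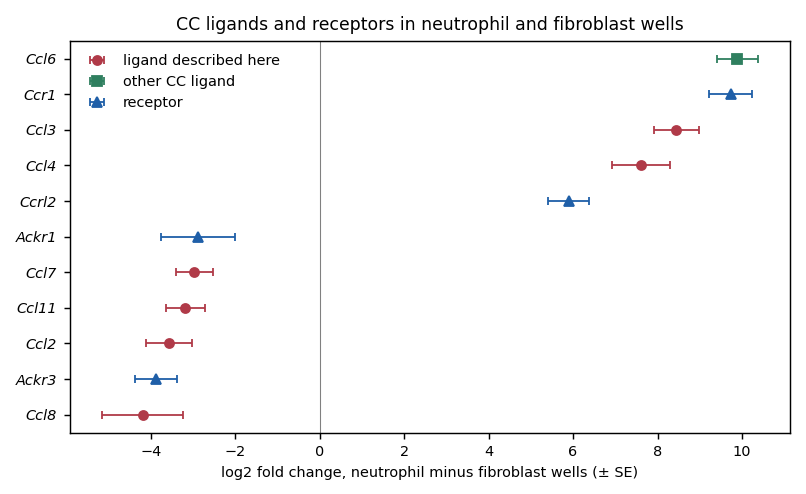
Log2 fold change of neutrophil to fibroblast wells with its SE for the CC ligands and receptors that passed the count filter, from sums per plate and gate. Ccl6, Ccr1, Ccl3, Ccl4 and Ccrl2 lie to the right (higher in neutrophil wells), and Ackr1, Ackr3, Ccl2, Ccl7, Ccl8 and Ccl11 to the left.

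The genes most like each ligand were taken over 18 sums of plate and gate by Pearson's correlation of log2(CPM + 10), as a description without a test, since the sums share plates and gates. Among 9465 genes, Ccl3 was closest to Rasgrp4, Fcgr3 and Cyp4f18 (r = 0.995, 0.995 and 0.993) and Ccl4 to E2f2, 6330407A03Rik and Gm10745 (0.919, 0.910 and 0.897). Ccl2 was closest to Selm, Sgce and Fbn1 (0.929, 0.920 and 0.917), the last encoding fibrillin. Ccl7 was closest to Gfpt2, Tnfaip6 and Sfrp4 (0.924, 0.886 and 0.875), of which Sfrp4 is among the iCAF markers used for gating. For Ccl8 they were Cntn1, Enho and Serpina3m (0.955, 0.924 and 0.917), and for Ccl11 Igfbp7, Sparc and Pamr1 (0.950, 0.945 and 0.945). Ccl19 was below 10 CPM on average, and Slc16a9, Vtn and Klhl13 reached 0.865, 0.843 and 0.796. Among the ligands, r was 0.835 for Ccl2 with Ccl7 and 0.744 for Ccl3 with Ccl4.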

How the data were processed

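SORT-seq plates of 6 mice were used, and the study's orthotopic single-cell data and bulk RNA-seq were not used here. Wells and molecular barcodes were read from read 1 by the authors, and read 2 was mapped with bwa to transcripts of GRCm38. The submitters' processing notes also name Cell Ranger 2.1.1, without a role. For each gene and well, one deposited table gives barcode counts, the whole number of different 6-base barcodes (4096 possible). A second deposited table gives estimated counts of transcripts, in which the authors corrected for molecules sharing a barcode. Neither was normalized. Spike-in RNA, 7.85% to 18.6% of a plate, was left out.

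Estimated counts of the wells of a gate were summed per plate where it had at least 10 wells, and rounded. They were tested by the quasi-likelihood test of edgeR 4.0.16, after filterByExpr and TMM scaling, with p-values adjusted by Benjamini-Hochberg over all genes tested (threshold 0.05). DESeq2 1.42.0 was an alternative. The edgeR test was tried on simulated counts with known changes, and DESeq2 was not. The SE was taken as the size of the log2 difference divided by the root of its F value. CPM are relative to the total of the summed wells and not divided by length. Intervals are exact (95%), and they and the floor of 3 counts cover counting error only. For thinning, 1000 barcodes were drawn per well, and shallower wells (29 fibroblast and 135 neutrophil) were left out. Sorting placed single cells in wells, and doublets were not searched for.

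The ligands, marker lists and gene lists were chosen with earlier results of these data known. The gate rule (highest mean log2(1 + 10000 × share) over the list, at least 3 markers found) was set after marker values had been seen, without chemokine values, and the stricter gate asked for 4 markers and a mean 1.5 times the next list's. Named genes are the 7 ligands, family members past the adjusted p and the 3 genes most like each ligand, and Procr, Cxcl3 and Cxcl10 were named after their values were seen. Ackr1, Ackr2, Ackr3, Ackr4 and Adgre1 were matched to older symbols. Ccl1, Ccl21a, Ccl22 and Ccr10 of the gene lists and Trbc2, Mzb1 and Igkc of the marker lists were not listed. Coding sequences are from GENCODE M21 (GRCm38). The coding window of 1 ligand and the counts of 1 receptor are not reported here.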

Additional observations from a re-analysis of the deposited data

Results flagged for a closer look

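Wells left out by the filter were outside every comparison above and held transcripts of all 7 ligands. Of 1071 such wells, 973 failed the mitochondrial limit, 82 had under 100 genes and 16 over 6000. They held 802.4 transcripts of Ccl2 (13.1% of all wells' transcripts of that gene), 84.07 of Ccl3 (18.0%), 145.9 of Ccl4 (45.0%), 461.3 of Ccl7 (13.4%), 168.1 of Ccl8 (38.6%), 579.1 of Ccl11 (21.3%) and 12 of Ccl19 (18.8%). The levels were below those of kept wells for Ccl2, at 107.6 against 548.0 CPM, and close to them for Ccl4, at 19.56 against 18.31 CPM. Wells with under 100 genes held at most 1 transcript of any ligand.

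No single plate passed the limit of a gap test on the difference of neutrophil to fibroblast wells for any of the 7 ligands. The largest gap was 0.571 of the range, for Ccl19, and the limit for 6 plates is 0.625. The gap lies between an extreme plate and its neighbor, so plates that stand apart together are not found. For Ccl4, neutrophil wells were at 0 CPM on plates 1 and 4 and at 42.26 to 414.1 CPM on the others. Ccl19 was at 0 in both gates on plates 4 and 6. The genotype effect of no ligand differed between neutrophil and fibroblast wells after adjustment.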

How the results depend on the processing

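Of 454 values of single ligands recomputed under the alternatives, 421 kept their direction and their side of the threshold, 7 lost their call, 11 gained one and 15 changed sign; none of the 15 was a called value. The calls of all 6 ligands tested between neutrophil and fibroblast wells were kept wherever they could be tested, with log2 differences of 7.56 to 9.13 for Ccl3 and -4.32 to -3.16 for Ccl2, and a highest adjusted p of 0.0168, for Ccl8. Ccl4 and Ccl8 gave no value there without plate 3 or with sums of both gates only, as they did not pass the count filter, Ccl8 gave none for epithelial and pericyte wells without plate 3, and the stricter gate left no pericyte comparison.

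Counts of called genes moved by over 1.5 times as follows. The genotype comparison of fibroblast wells gave 1 gene with DESeq2, and that of neutrophil wells 1 gene (Cxcl10) without wells holding more than 1 transcript of Ptprc or Epcam, 6 genes with no low-count filter and 0 to 1 with each plate left out. The epithelial comparison gave 2296 genes with a mitochondrial limit of 30% (1516 as reported), and the pericyte comparison 496 to 1063 with each plate left out (810). For iCAF-like wells leaving out plates gave 302 to 851 genes (762). For telocyte-like wells (668) the count was 1122 with the stricter gate, 402 with DESeq2 and 283 to 834 with plates left out. For wells with Cxcl13 and Grem1 markers (135) it was 79 with DESeq2, 355 with no low-count filter, 64 with no plate block and 40 to 223 with plates left out. The lowest counts came without plate 1 for the 3 subtypes and without plate 2 for pericyte wells. Beyond fewer samples, the cause was not tested.

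Signs changed for values that were not called. Leaving out plates, the genotype differences in fibroblast wells ran from -0.78 to 1.43 for Ccl2, -1.33 to 1.67 for Ccl7 and -0.15 to 0.62 for Ccl11 on the log2 scale, and those of the mean levels from -236.3 to 289.5 CPM for Ccl2, -199.5 to 173.7 CPM for Ccl7, -24.33 to 85.57 CPM for Ccl11 and -3.37 to 9.35 CPM for Ccl19. Ccl11 in pericyte wells was at 0.0648 with no plate block. In iCAF-like wells Ccl11 was at -0.0822 with mitochondrial genes taken by name, -0.116 with the limit of 30%, -0.0292 with the stricter gate, -0.0181 with library size only and -0.21 to 0.85 with plates left out. In telocyte-like wells it was at 0.0864 with DESeq2, 0.055 with library size only and -0.28 to 0.42 with plates left out.

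The plate block pairs gates of the same mouse. Replicate numbers of the genotypes follow only the order of the samples, so genotypes were not paired. Ccl19 was counted few times in every gate. On the plates with the fewest neutrophil wells Ccl4 was at 0 in these wells, and the part of depth in this was not tested.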

Other observations

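A few wells without a type carried a large part of the Ccl3 and Ccl4 outside neutrophil wells. On plate 4, 4 such wells held Ccl3, among them 1 well with 20.05 Ccl3 and 2.0 Ccl4 transcripts of 606 in all and 1 with 17.03 and 27.09 of 3019. Summed, the 6 wells without a type that held either ligand had Fth1, Ftl1, Il1rn, Cxcl2, Ccl3, Psap, Ccl4, Gpnmb and Ctsb among their 15 leading genes, with Ccl3 at 10228 CPM and Ccl4 at 8024 CPM. These wells met no marker list, so they carry no cell type name here.

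Ccl12, another CC ligand, was counted 12.01 times, all in fibroblast wells, and Ccl5 was counted 43.09 times in 10 of 1233 wells. Ccr7, the receptor of Ccl19, was counted 35.13 times in 3 fibroblast wells.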
